A study of Mus musculus with 21 samples.

Results

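The genes described here are 39 cell cycle and DNA replication genes of the mouse, measured in lung after bleomycin, an antibiotic that breaks DNA strands and is used to injure the lung of laboratory mice. They were taken as a named list, 14 that serve DNA replication and 25 that serve mitosis, together with all probe sets annotated to them. Of the 39, 38 had at least 1 probe set that named the gene alone (70 probe sets of 22626), and 32 passed the filter on dim signals and were tested among 9079 genes, 11 of them replication genes and 21 mitosis genes. The expression of cyclin B1 (Ccnb1) was not analysed here, and only its promoter window is counted. The 6 genes that had only dim probe sets were the thymidylate synthase gene Tyms, the origin licensing factor Cdc6, the S phase cyclin Ccne1 and the mitotic checkpoint kinases Bub1, Bub1b and Ttk.

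A dividing cell first copies its DNA in S phase. The MCM helicase subunits are loaded at replication origins, ribonucleotide reductase and thymidine kinase supply nucleotides, and the sliding clamp PCNA and the flap nuclease FEN1 work at the fork. In mitosis CDK1 with cyclins A and B, the Aurora and Polo kinases, the spindle and midzone proteins and the anaphase promoting complex with its activator CDC20 divide the chromosomes. The resting lung has few dividing cells, and after injury alveolar epithelium, endothelium, fibroblasts and leukocytes can all divide. Whole lung RNA does not tell these cells apart, and in such samples fewer cells of a type and less RNA per cell cannot be told apart either.

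The right lung, taken whole, was sampled from mice of strains A/J, C57BL/6 and also C3H/HeJ. Its RNA was hybridised to 21 Affymetrix arrays, each holding a pool of 3 to 5 mice. No 2 pools shared strain, stage, sex and dose. The p-values therefore measure the spread between pools left after the terms for group and sex. This spread includes any sex or dose effect that these terms do not hold. Bleomycin was given by osmotic minipump at 100 mg/kg to males and 125 mg/kg to females, and A/J at 3 weeks also had a male pool at 80 mg/kg and a female pool at 100 mg/kg. Since the sexes differ in dose outside A/J at 3 weeks, sex and dose cannot be told apart there. The 10 groups were control (2 arrays in each strain, 1 male and 1 female), 3 weeks (4 A/J, 2 C57BL/6 and 2 C3H/HeJ arrays), 6 weeks (2 A/J, 2 C3H/HeJ and 1 female C57BL/6 array) and moribund C57BL/6 mice (2 arrays, at a time the labels do not give). The labels do not say what the controls received, nor the ages of the mice. The surfactant gene Sftpc, which defines type 2 alveolar cells, read 6041 to 7395 over the 21 arrays. Abca3 and Slc34a2, markers of the same cells, varied more, from 385 to 1594 and from 1603 to 4118. The median deposited intensity per array ran from 58.6 to 111, a ratio of 1.90, and arrays were brought to 1 distribution before any comparison. The number of arrays limits the precision of every value below, and no 2 arrays held the same values.

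Promoter words differed between the mitosis and the replication genes, and sequences are shown here because most tested genes of each class rose together in the lungs (below). Cell cycle promoters are known for 3 short words. The CCAAT box is bound by NF-Y, the cell cycle homology region (CHR, TTTGAA) by the DREAM and MuvB complexes that time G2 and mitosis genes, and the E2F word by the E2F factors that time G1 and S phase genes. Windows of 250 bases before to 50 bases after each annotated start (RefSeq, mouse build GRCm38.p6) were found for 36 of the 39 genes. The stretches printed below are the 160 bases just before the start, 5′ to 3′ on the strand of the gene. Capitals mark the CCAAT box, the CHR word and the E2F words TTTCCCGC, TTTCGCGC, TTTGCCGC and TTTGGCGC, each on either strand, so that a CCAAT box on the opposite strand reads ATTGG and a CHR there starts with TTC.

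For mitosis genes the positions are chr10:69352913-69353072 (minus strand) for Cdk1, chr4:118437344-118437503 (minus strand) for Cdc20, chr2:164769769-164769928 (plus strand) for Ube2c, chr3:89418292-89418451 (minus strand) for Cks1b, chr11:99024190-99024349 (minus strand) for Top2a and chr7:135716380-135716539 (minus strand) for Mki67. They were chosen as genes whose CCAAT and CHR words lie close together.
Cdk1: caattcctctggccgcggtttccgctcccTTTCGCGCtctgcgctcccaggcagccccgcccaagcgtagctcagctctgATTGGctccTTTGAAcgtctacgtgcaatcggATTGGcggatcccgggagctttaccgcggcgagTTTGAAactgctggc
Cdc20: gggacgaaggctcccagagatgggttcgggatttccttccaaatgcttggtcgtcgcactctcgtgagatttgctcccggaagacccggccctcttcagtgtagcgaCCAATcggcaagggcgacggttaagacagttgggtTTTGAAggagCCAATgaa
Ube2c: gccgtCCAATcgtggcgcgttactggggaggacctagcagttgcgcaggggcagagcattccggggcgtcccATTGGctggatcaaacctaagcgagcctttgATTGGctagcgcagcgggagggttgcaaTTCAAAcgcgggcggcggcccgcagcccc
Cks1b: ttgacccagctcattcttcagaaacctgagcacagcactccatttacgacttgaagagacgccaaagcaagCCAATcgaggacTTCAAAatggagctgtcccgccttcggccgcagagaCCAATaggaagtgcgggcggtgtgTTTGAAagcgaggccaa
Top2a: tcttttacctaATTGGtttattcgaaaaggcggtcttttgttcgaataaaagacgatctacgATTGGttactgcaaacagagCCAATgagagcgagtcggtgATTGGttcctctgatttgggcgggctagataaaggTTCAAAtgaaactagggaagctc
Mki67: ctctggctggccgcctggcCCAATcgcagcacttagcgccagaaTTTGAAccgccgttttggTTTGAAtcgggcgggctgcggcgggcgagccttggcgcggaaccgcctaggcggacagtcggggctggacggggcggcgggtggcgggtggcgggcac

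For replication genes the positions are chr8:75109349-75109508 (plus strand) for Mcm5 and chr1:128359706-128359865 (minus strand) for Mcm6. Both hold E2F words and no CHR in this window.
Mcm5: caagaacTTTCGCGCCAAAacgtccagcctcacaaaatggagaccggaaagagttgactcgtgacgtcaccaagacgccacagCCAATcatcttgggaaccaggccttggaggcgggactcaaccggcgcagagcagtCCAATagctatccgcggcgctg
Mcm6: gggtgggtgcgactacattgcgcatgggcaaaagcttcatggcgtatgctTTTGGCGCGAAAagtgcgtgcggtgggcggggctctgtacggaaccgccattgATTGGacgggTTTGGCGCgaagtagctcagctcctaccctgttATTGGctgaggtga

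In Mcm5 and Mcm6 an E2F word overlaps a second E2F word on the other strand, so that a run of capitals there counts as 2 words. The word TTTGAA stood in 18 of the 24 windows of mitosis genes (75.0%), in 2 of the 15 windows of replication genes (13.3%) and in 17.9% of all 32851 promoter windows of the same length. An E2F word stood in 5 of the 15 replication windows (33.3%), in 1 of the 24 mitosis windows (4.17%, that of Cdk1) and in 2.26% of all windows. CCAAT was present in 83.3% of the mitosis windows, 60.0% of the replication windows and 37.4% of all. CCAAT and TTTGAA occurred together in 17 of the 24 mitosis windows (70.8%), 1 of the 15 replication windows (6.67%) and 6.95% of all windows. A match is only a run of letters, and its absence from a window says nothing of the factor. Some genes had 2 annotated starts (Prc1, Fen1 and Mcm7), whose windows each counted.

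**Figure D1:**
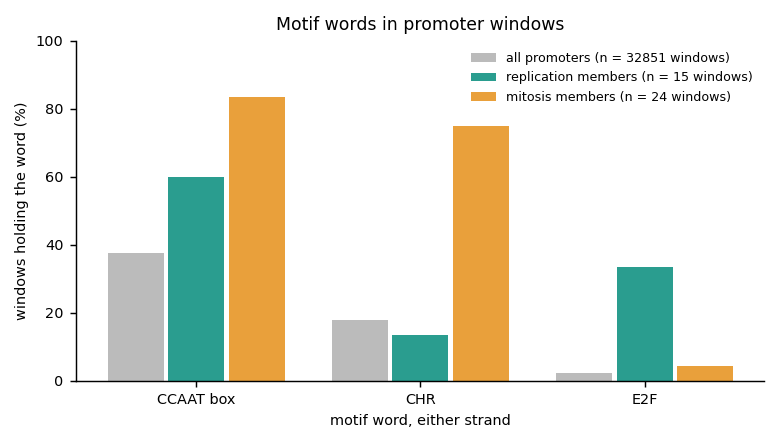
Share of promoter windows (percent, vertical axis) that hold each motif word on either strand, for all 32851 windows, the 15 windows of replication genes and the 24 windows of mitosis genes. The CHR word stands in 75.0% of mitosis windows against 17.9% of all, and the E2F words in 33.3% of replication windows against 2.26% of all.

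At 3 weeks the proliferation genes were higher in bleomycin lungs. In the mean of the 3 strains, 25 of the 32 tested genes rose and none fell (limma, adjusted p under 0.05 over 9079 genes), where 7.94% of all tested genes were called higher and 9.03% lower. Their median change was 0.64 on the log2(signal + 16) scale, a scale that understates the change of dim genes. Of the mitosis genes 17 of 21 rose (median 0.69), and of the replication genes 8 of 11 (median 0.42). The mitosis genes with the smallest p were Birc5 (1.35 ± 0.13, SE, adjusted p = 1.87e-06), Cks1b (0.87 ± 0.09, adjusted p = 3.07e-06) and Mki67 (1.35 ± 0.15, adjusted p = 6.59e-06). Among the replication genes they were Rrm2 (1.15 ± 0.12, adjusted p = 2.76e-06), Tk1 (1.07 ± 0.12, adjusted p = 6.79e-06) and Rrm1 (0.51 ± 0.09, adjusted p = 0.000798). The 7 genes that did not pass were Mcm2, Mcm4, Mcm6, Cdk1, Plk1, Kif11 and Hmmr. Several tested genes, Birc5 and Tk1 among them, had control arrays below the dim limit of 42.5. They were kept on a mean over all arrays that includes the bleomycin arrays. In controls Birc5 read 32.2 to 49.4 and Tk1 32.7 to 56.3. On the deposited values without scaling, where the median of all tested genes lies at -0.27, the count was 14 of 32 and the genes' median 0.44.

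**Figure D2:**
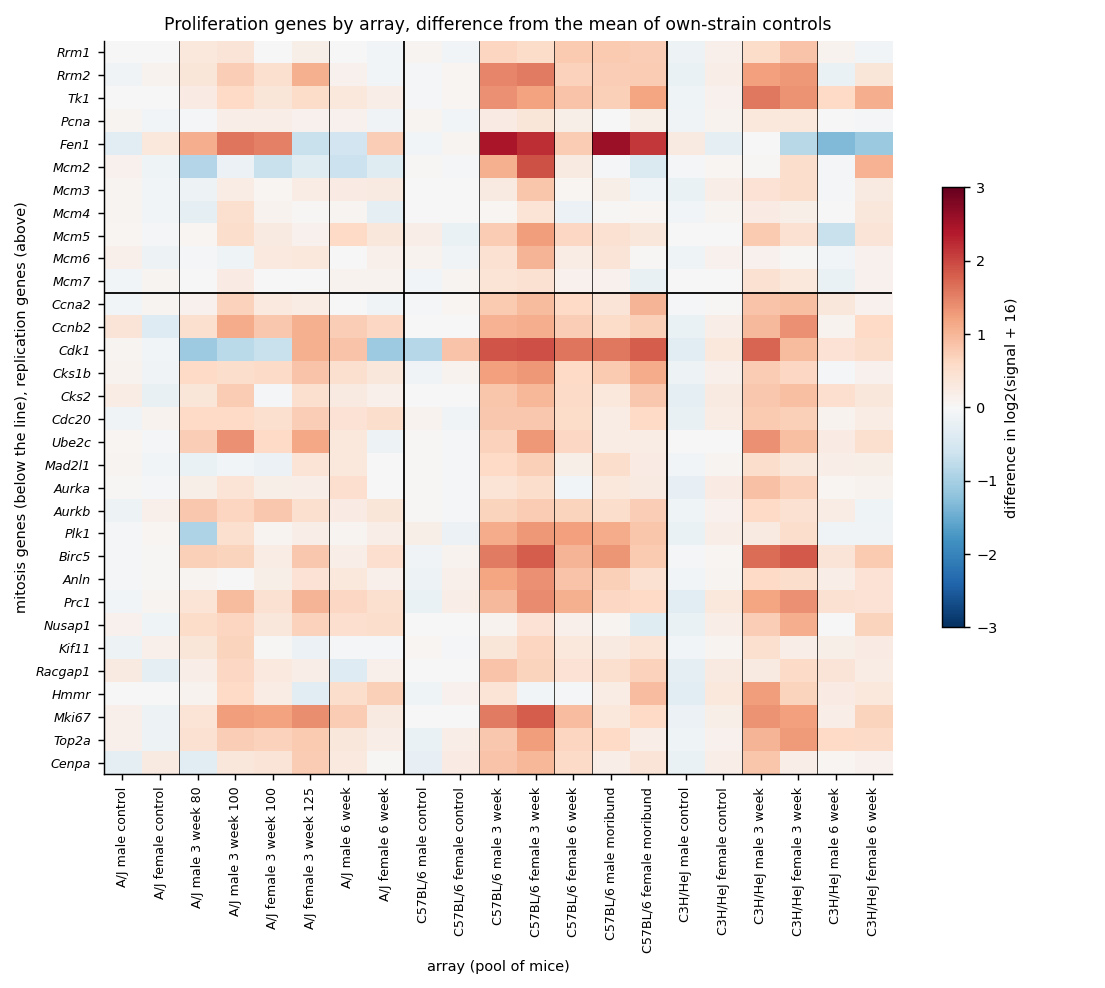
Difference of each gene (rows) on each array (columns) from the mean of the 2 control arrays of its own strain, as a colour in log2(signal + 16). The 3 week columns of C57BL/6 and C3H/HeJ are red for nearly all genes, the A/J 3 week columns are paler, and Fen1 and Cdk1 change colour within groups.

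The strains differed in how many genes passed. In C57BL/6 22 of 32 rose at 3 weeks (7.09% of all genes were called higher and 5.97% lower), with a median of 0.92. In C3H/HeJ 13 of 32 rose (1.74% of all genes higher, 1.09% lower), with a median of 0.70. In A/J 2 of 32 rose, Mki67 and Cks1b (0.793% of all genes higher, 0.242% lower), with a median of 0.31. None was called lower in any strain. Every 3 week array lay above every control array for 31 of 32 genes in C57BL/6 (31.1% of all genes), for 28 in C3H/HeJ (21.1%) and for 16 in A/J (10.5%), and the first of these shares comes from 2 arrays against 2, the last from 4 against 2. The counts rest on few arrays. In C57BL/6 the count was 12 without the male 3 week, the male control or the female control array, and 10 without the female 3 week array. In C3H/HeJ it was 2 without the male control, 8 without the female control, 6 without the male and 7 without the female 3 week array, and in A/J it was 0 without the male array at 100 mg/kg, the female array at 125 mg/kg or the female control, and 1 without the male control. On the deposited scale the counts were 9, 2 and 0.

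**Figure D3:**
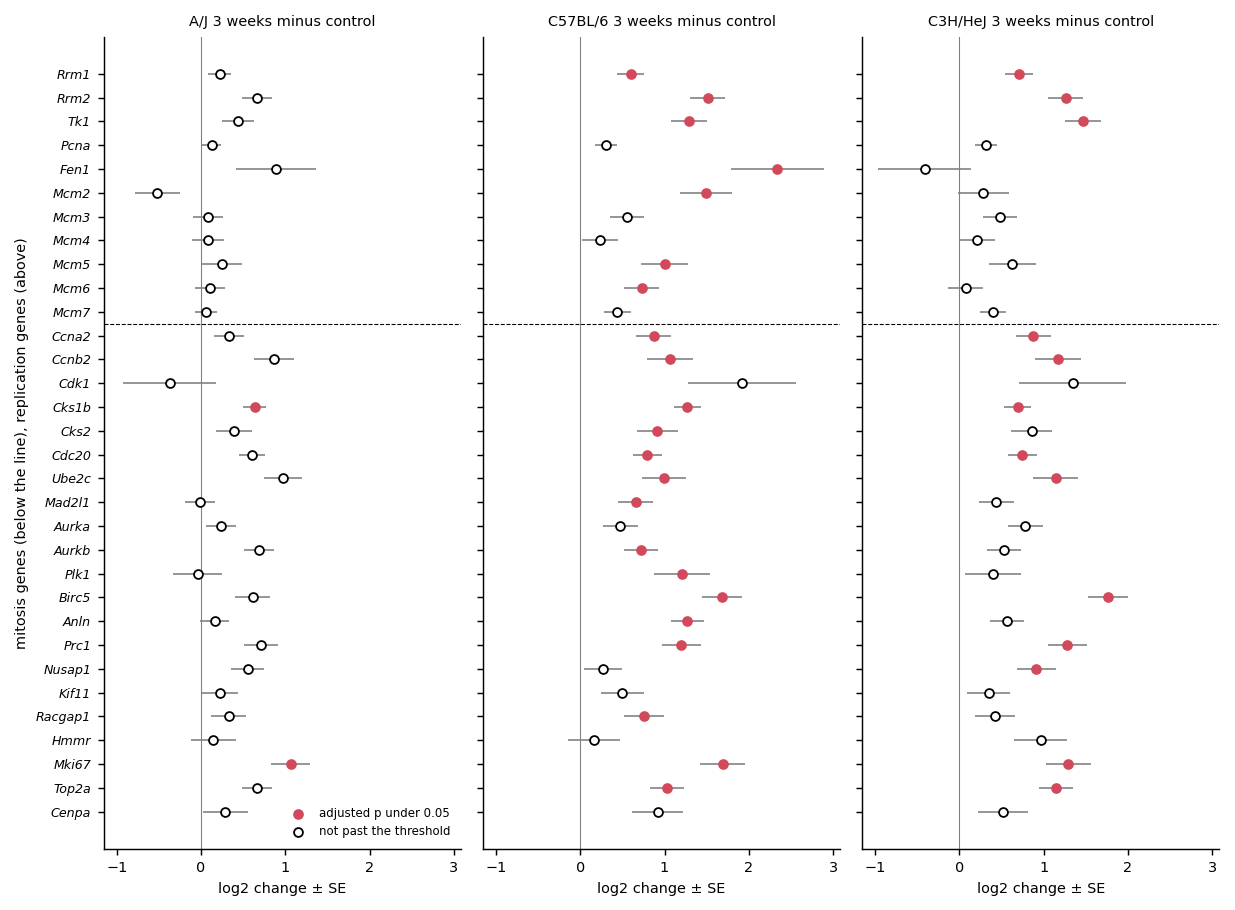
Change at 3 weeks against own-strain controls for the 32 tested genes, as log2 change ± SE (horizontal axis) in each strain, with filled points for an adjusted p under 0.05. Filled points number 22 in C57BL/6, 13 in C3H/HeJ and 2 in A/J, and most A/J points lie nearer to 0.

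Ribonucleotide reductase, whose large subunit is Rrm1 and whose S phase small subunit is Rrm2, makes deoxyribonucleotides, and cytosolic thymidine kinase (Tk1) salvages thymidine. All 3 tested members of this group rose at 3 weeks in C57BL/6 and in C3H/HeJ and again in moribund C57BL/6 lungs, and none passed in A/J. Values per array are normalised signals, male pool before female pool, and a gene's signal is comparable only with its own on other arrays. In C57BL/6, Rrm2 read 77.2 and 84.9 in controls, 252 and 269 at 3 weeks, 139.6 on the female 6 week array and 147 and 148 in moribund mice. In C3H/HeJ it read 79.3 and 111 in controls, 241 and 253 at 3 weeks and 79.0 and 126 at 6 weeks. In A/J it read 77.8 and 94.3 in controls, 115 (male, 80 mg/kg), 154 (male, 100 mg/kg), 126 (female, 100 mg/kg) and 197 (female, 125 mg/kg) at 3 weeks, and 94.5 and 80.0 at 6 weeks. The 3 week arrays thus lay above the controls in each strain with no overlap, and at 6 weeks the A/J and C3H/HeJ arrays overlapped their controls. The change of Rrm2 at 3 weeks was 1.51 ± 0.21 in C57BL/6 (2.85-fold, adjusted p = 0.000128), 1.26 ± 0.21 in C3H/HeJ (adjusted p = 0.00292) and 0.66 ± 0.18 in A/J (adjusted p = 0.103).

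Tk1 showed the same order of stages. It read 33.6 and 37.7 in C57BL/6 controls, 118 and 103 at 3 weeks, 77.8 on the 6 week array and 68.9 and 102 in moribund mice. C3H/HeJ controls read 32.7 and 42.8, the 3 week arrays 144 and 121 and the 6 week arrays 65.2 and 97.1. A/J controls read 56.3 and 55.8, the 3 week arrays 68.8, 93.6, 76.0 and 89.9 (in the order of doses above) and the 6 week arrays 73.7 and 67.3. Every bleomycin array of every strain lay above the controls of its strain. Tk1 rose by 1.47 ± 0.21 in C3H/HeJ (adjusted p = 0.000981) and by 1.29 ± 0.21 in C57BL/6 (adjusted p = 0.000617), and its A/J value was 0.44 ± 0.18 (adjusted p = 0.384). Rrm1 rose by 0.60 ± 0.16 in C57BL/6 and 0.71 ± 0.16 in C3H/HeJ.

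**Figure D4:**
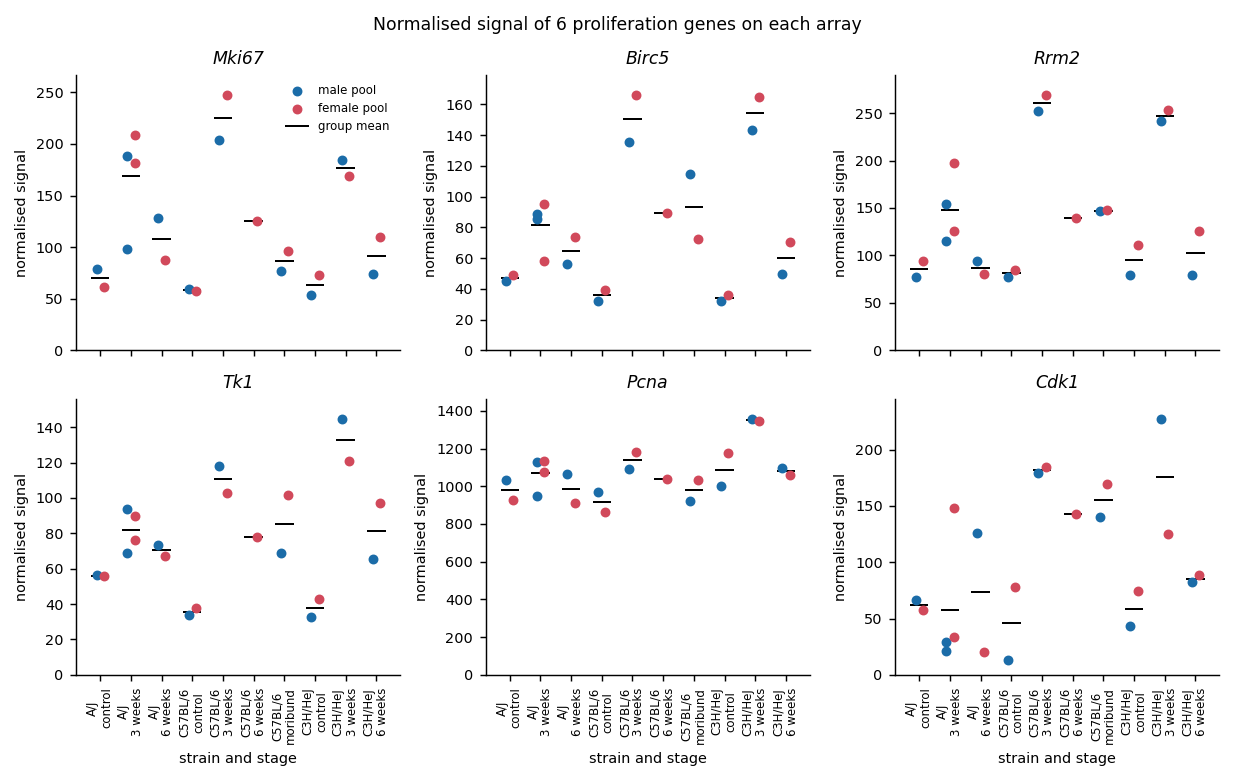
Normalised signal (vertical axes, from 0) of 6 genes on each of the 21 arrays by strain and stage, male and female pools in 2 colours, with the group mean as a bar. Mki67, Birc5, Rrm2 and Tk1 have their highest group mean at 3 weeks within C57BL/6 and within C3H/HeJ, Pcna moves little for its level, and Cdk1 varies widely within groups.

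At the replication fork the signals moved less or less regularly. Pcna, the sliding clamp, which also serves DNA repair, read 971 and 864 in C57BL/6 controls, 1090.4 and 1183 at 3 weeks, 1039 on the 6 week array and 922 and 1036 in moribund mice. In C3H/HeJ it read 1002 and 1175 in controls, 1355 and 1347 at 3 weeks and 1098 and 1059 at 6 weeks, and in A/J 1033 and 929 in controls, 950.0, 1128, 1135 and 1077 at 3 weeks and 1065 and 910.2 at 6 weeks. The 3 week values were above the controls without overlap in C57BL/6 and C3H/HeJ but overlapped them in A/J. Pcna passed in the mean of the strains (0.25 ± 0.07, adjusted p = 0.0251) and in no single strain, and on the deposited scale that value turned to -0.062. Fen1, the flap nuclease, rose in C57BL/6 (2.34 ± 0.55, adjusted p = 0.00912), while in C3H/HeJ it read 289 and 194 in controls and 238 and 127 at 3 weeks. The Fen1 probe set used varied widely inside groups, with an SD of 0.56 on the log2 scale against a median of 0.21 for the tested genes of the list, and a second Fen1 probe set gave 1.15 in C57BL/6 and 0.24 in C3H/HeJ.

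The MCM genes encode the 6 subunits of the replicative helicase. In C57BL/6 at 3 weeks Mcm2, Mcm5 and Mcm6 rose and Mcm3, Mcm4 and Mcm7 did not pass, and none of the 6 passed in A/J or C3H/HeJ. Mcm5 read 63.2 and 43.7 in C57BL/6 controls, 101 and 147 at 3 weeks, 89.9 on the 6 week array and 77.7 and 70.9 in moribund mice, a change of 1.0 ± 0.28 at 3 weeks (adjusted p = 0.0237). In C3H/HeJ it read 80.9 and 80.9 in controls, 151 and 118 at 3 weeks and 45.5 and 111 at 6 weeks. A/J gave 92.3 and 84.5 in controls, 92.8, 134, 110.3 and 97.2 at 3 weeks and 142 and 117 at 6 weeks. Thus Mcm5 was above the controls on every C57BL/6 and A/J array after bleomycin, and the A/J values of 0.25 ± 0.24 at 3 weeks and 0.47 ± 0.28 at 6 weeks did not pass.

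Mcm6, whose promoter holds 3 E2F words, read 136 and 114 in C57BL/6 controls, 177 and 268 at 3 weeks, 147 on the 6 week array and 168 and 129 in moribund mice. C3H/HeJ gave 161 and 193 in controls, 194 and 179.8 at 3 weeks and 165 and 195 at 6 weeks. A/J gave 176 and 139 in controls, 152, 141, 194 and 199 at 3 weeks and 156 and 177 at 6 weeks. The groups overlapped in A/J and C3H/HeJ, and Mcm6 rose by the C57BL/6 test (0.73 ± 0.21, adjusted p = 0.0271, against 0.08 ± 0.21 in C3H/HeJ and 0.11 ± 0.18 in A/J), a difference between strains that did not pass its own test (C57BL/6 minus C3H/HeJ 0.66 ± 0.29, adjusted p = 0.308). Mcm2 read 112 and 105 in C57BL/6 controls, 244 and 455 at 3 weeks, 134 on the 6 week array and 106 and 76.1 in moribund mice. In A/J it read 156 and 127 in controls and 69.7, 123, 83.3 and 105 at 3 weeks, every 3 week array below both controls (-0.52 ± 0.26, adjusted p = 0.495). Mcm2 was the replication gene whose 3 week change differed between these strains by the test (2.01 ± 0.40, adjusted p = 0.0177). That result rests on 1 of the 2 Mcm2 probe sets that passed the dim filter, of the kind shared between transcripts. Its SD within groups was 0.39 on the log2 scale, against a median of 0.21 for the tested genes of the list.

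Among the mitosis genes, the chromatin group holds Mki67, which coats mitotic chromosomes and is the usual histological marker of cycling cells, Top2a, the topoisomerase that untangles replicated DNA, and Cenpa, the centromeric histone. All 3 rose in the mean of the strains, 2 in C57BL/6 and C3H/HeJ (Mki67 and Top2a) and 1 in A/J (Mki67). Mki67 read 59.8 and 57.3 in C57BL/6 controls, 204 and 248 at 3 weeks, 125 on the 6 week array and 76.9 and 96.6 in moribund mice. C3H/HeJ gave 53.4 and 73.3 in controls, 185 and 169 at 3 weeks and 74.1 and 109.8 at 6 weeks, and A/J gave 78.9 and 61.6 in controls, 98.0, 188, 182 and 209 at 3 weeks and 129 and 87.6 at 6 weeks. In all 3 strains every bleomycin array lay above its controls, and the A/J array at 80 mg/kg was the lowest at 3 weeks. Mki67 rose by 1.69 ± 0.27 in C57BL/6 (adjusted p = 0.000456), 1.29 ± 0.27 in C3H/HeJ (adjusted p = 0.0134) and 1.06 ± 0.23 in A/J (adjusted p = 0.0321).

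Top2a read 85.8 and 117 in C57BL/6 controls, 186 and 263 at 3 weeks, 166 on the 6 week array and 159 and 117 in moribund mice. In C3H/HeJ it read 82.2 and 99.7 in controls, 199 and 241 at 3 weeks and 146 and 144 at 6 weeks. In A/J it read 119 and 93.9 in controls, 150.1, 188, 180.2 and 194 at 3 weeks and 138 and 125 at 6 weeks. Top2a lay above the controls at 3 and 6 weeks in every strain and rose by the 3 week test in C3H/HeJ (1.14 ± 0.20, adjusted p = 0.0046) and C57BL/6 (1.03 ± 0.20, adjusted p = 0.00237), with 0.67 ± 0.17 in A/J (adjusted p = 0.092).

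The mitotic kinases and the chromosomal passenger complex were represented by Aurka, Aurkb, Plk1 and Birc5. Birc5, which encodes survivin, the passenger protein that brings Aurora B to centromeres and midzone, had the largest change of the tested genes of the list in C3H/HeJ (1.76 ± 0.24, adjusted p = 0.000575) and rose by 1.68 ± 0.24 in C57BL/6 (adjusted p = 0.000145). It read 32.2 and 39.5 in C57BL/6 controls, 135 and 166 at 3 weeks, 89.1 on the 6 week array and 114 and 72.8 in moribund mice. In C3H/HeJ it read 32.2 and 36.2 in controls, 144 and 165 at 3 weeks and 49.7 and 70.7 at 6 weeks, and in A/J 45.4 and 49.4 in controls, 88.5, 85.3, 58.4 and 95.0 at 3 weeks and 56.4 and 73.6 at 6 weeks. No bleomycin array of any strain fell into the range of its controls, though the A/J value of 0.61 ± 0.20 did not pass (adjusted p = 0.222).

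Plk1, the Polo kinase of mitotic entry, read 30.2 and 20.7 in C57BL/6 controls, 73.8 and 84.8 at 3 weeks, 81.2 on the 6 week array and 72.6 and 57.8 in moribund mice. C3H/HeJ gave 34.3 and 49.5 in controls, 52.9 and 66.8 at 3 weeks and 37.2 and 37.1 at 6 weeks, and A/J gave 38.5 and 43.3 in controls, 13.9, 63.8, 43.8 and 49.2 at 3 weeks and 44.6 and 49.3 at 6 weeks. Plk1 rose at 3 weeks in C57BL/6 (1.21 ± 0.33, adjusted p = 0.0217), read 20.7 to 49.5 in controls against a dim limit of 42.5, and had its lowest value on the A/J array at 80 mg/kg. Aurkb rose in C57BL/6 at 3 weeks (0.72 ± 0.20) and in moribund mice (0.64 ± 0.20), and Aurka rose in the mean of the strains (0.50 ± 0.11) and in no single strain.

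In the cyclin and CDK1 group, Cks1b, a small subunit that binds cyclin-dependent kinases, rose in every strain at 3 weeks, by 1.27 ± 0.16 in C57BL/6 (adjusted p = 4.87e-05), 0.69 ± 0.16 in C3H/HeJ (adjusted p = 0.0267) and 0.63 ± 0.14 in A/J (adjusted p = 0.0321). Ccna2, the cyclin of S phase and G2, read 90.6 and 101 in C57BL/6 controls, 177 and 199 at 3 weeks, 154 on the 6 week array and 129.7 and 210.3 in moribund mice. C3H/HeJ gave 94.8 and 98.8 in controls, 187 and 195 at 3 weeks and 127 and 107 at 6 weeks, and A/J gave 107 and 121 in controls, 126, 193, 142 and 136 at 3 weeks and 112 and 105 at 6 weeks. Every 3 week array was above the controls of its strain, and only the A/J 6 week arrays overlapped theirs. Ccna2 rose by 0.87 ± 0.21 in C57BL/6 and 0.88 ± 0.21 in C3H/HeJ, with 0.33 ± 0.18 in A/J (adjusted p = 0.515). Ccnb2, a B-type cyclin, rose in C57BL/6 (1.07 ± 0.28) and C3H/HeJ (1.17 ± 0.28).

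Cdk1 itself, the kinase of mitosis, had a single probe set and the widest spread of the tested genes of the list, an SD of 0.73 within groups on the log2 scale. It read 13.2 and 78.3 in C57BL/6 controls, 179 and 185 at 3 weeks, 143 on the 6 week array and 140.4 and 169.5 in moribund mice. C3H/HeJ gave 43.0 and 74.2 in controls, 227 and 125 at 3 weeks and 82.5 and 88.6 at 6 weeks, and A/J gave 66.9 and 58.0 in controls, 20.8, 29.0, 33.5 and 148 at 3 weeks and 126 and 20.5 at 6 weeks. Values in C57BL/6 and C3H/HeJ were all above the controls after bleomycin, while 3 of the 4 A/J arrays at 3 weeks were below theirs. No Cdk1 comparison passed the test (C57BL/6 at 3 weeks 1.92 ± 0.64, adjusted p = 0.0577).

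Of the checkpoint and anaphase genes, Cdc20, which activates the anaphase promoting complex, read 90.4 and 75.0 in C57BL/6 controls, 155 and 155 at 3 weeks, 128 on the 6 week array and 98.0 and 133 in moribund mice. C3H/HeJ gave 85.4 and 122 in controls, 187 and 178 at 3 weeks and 112 and 122 at 6 weeks, and A/J gave 81.0 and 97.6 in controls, 143, 143, 131 and 159 at 3 weeks and 126 and 136 at 6 weeks. Only the C3H/HeJ arrays at 6 weeks overlapped their controls. Cdc20 rose by 0.80 ± 0.17 in C57BL/6 (adjusted p = 0.00539) and 0.75 ± 0.17 in C3H/HeJ (adjusted p = 0.028), and its A/J value was 0.60 ± 0.15 (adjusted p = 0.0745). Ube2c, the ubiquitin conjugating enzyme of the same complex, rose in both of those strains (0.99 ± 0.27 and 1.14 ± 0.27), and in A/J its value was 0.97 ± 0.23 (adjusted p = 0.0533). Mad2l1, a checkpoint protein that restrains CDC20, rose in C57BL/6 (0.66 ± 0.21) and had a value of -0.01 ± 0.18 in A/J.

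Spindle and cytokinesis genes were less uniform. Anln, which encodes anillin of the contractile ring, Prc1, which bundles midzone microtubules, and Racgap1 of the centralspindlin complex rose in C57BL/6 (1.27 ± 0.20, 1.2 ± 0.23 and 0.76 ± 0.24). In C3H/HeJ the 2 that rose were Prc1 (1.28 ± 0.23) and the spindle protein gene Nusap1 (0.91 ± 0.23). Kif11, the kinesin that separates spindle poles, and Hmmr passed in no comparison. Anln read 33.3 and 44.3 in C57BL/6 controls and 108 and 124 at 3 weeks, against 46.1 and 49.2 and then 51.1, 46.7, 56.0 and 69.3 in A/J. The A/J groups overlapped, the C57BL/6 groups did not, and the 3 week change of Anln differed between the strains (1.11 ± 0.26, adjusted p = 0.0407).

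Differences between strains in the 3 week response were tested directly. Between C57BL/6 and A/J 2 of 32 genes passed, Anln and Mcm2, both with the larger change in C57BL/6 (0.925% of all genes), and the median difference of the 32 was 0.50. The count was 0 without the male A/J control, the female C57BL/6 control or the female C57BL/6 3 week array, 0 with the A/J arrays at matching doses only, and 1 on the deposited scale or without any of the other arrays but the female A/J array at 125 mg/kg. Neither C57BL/6 minus C3H/HeJ (median 0.07, 14 of all genes called higher and 13 lower, 0.297%) nor C3H/HeJ minus A/J (median 0.39, 1 of all genes called, 0.0110%) gave a called gene of the list, with 5 and 4 genes at an unadjusted p under 0.05. Of all 9079 genes 1336 and 361 had such a p, and the first count of the list is near that share. Birc5 had 1.07 ± 0.31 for C57BL/6 minus A/J (adjusted p = 0.0981) and 1.15 ± 0.31 for C3H/HeJ minus A/J (adjusted p = 0.638), which leaves these differences undecided rather than absent. In control lungs no gene of the list differed between strains by the test, where 2.80% (C57BL/6 and A/J), 2.53% (C57BL/6 and C3H/HeJ) and 0.958% (A/J and C3H/HeJ) of all genes did. At an unadjusted p under 0.05 there were 3, 2 and 0 genes of the list, against 1464, 1333 and 645 of all 9079 genes. These counts of the list are below the shares of all genes. The medians of the list were -0.16 (C57BL/6 minus A/J), -0.11 (C57BL/6 minus C3H/HeJ) and 0.07 (A/J minus C3H/HeJ).

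Averaged over the 32 genes, single arrays showed the same order. Mean differences from own-strain controls were 0.87 and 1.06 in C57BL/6 at 3 weeks, 0.77 and 0.70 in C3H/HeJ, and 0.16 (male, 80 mg/kg), 0.53 (male, 100 mg/kg), 0.30 (female, 100 mg/kg) and 0.44 (female, 125 mg/kg) in A/J. Within each A/J sex the array at the higher dose had the higher mean over the 32 genes, with 1 array a dose and no test. In females this held for the mitosis genes (0.33 at 100 mg/kg and 0.59 at 125 mg/kg), while the replication genes had 0.24 at 100 mg/kg and 0.15 at 125 mg/kg. Control arrays lay at -0.14 and 0.14 in C3H/HeJ, -0.04 and 0.04 in C57BL/6 and 0.02 and -0.02 in A/J.

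**Figure D5:**
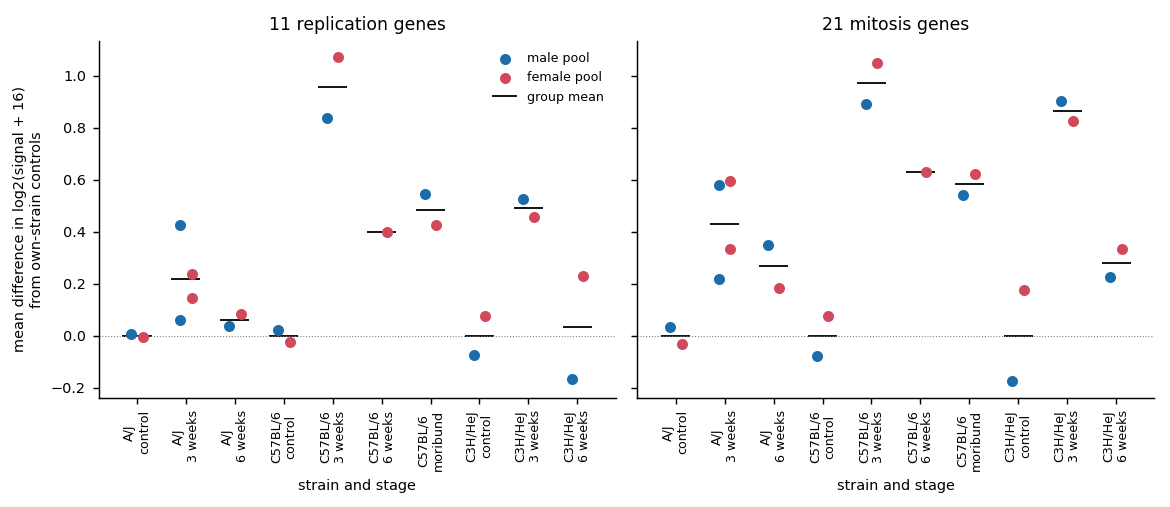
Mean difference in log2(signal + 16) from own-strain controls over the 11 replication genes (left) and the 21 mitosis genes (right) on each array, with group means as bars. The 3 week arrays are the highest of each strain in C57BL/6 and C3H/HeJ for both classes, and the A/J 3 week arrays lie below those of both other strains.

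By 6 weeks no gene of the list passed against control in A/J or C3H/HeJ, where 9 and 10 of all genes were called higher (0.0991% and 0.110%) and 1 and 0 lower (0.0110% and 0%). At an unadjusted p under 0.05 there were 5 genes of the list in A/J and 4 in C3H/HeJ, against 477 and 419 of all 9079 genes. The medians of the list were 0.19 and 0.20. Every 6 week array lay above every control array for 16 genes in A/J (19.3% of all genes) and for 12 in C3H/HeJ (21.4%). The genes nearest the threshold were Cdc20 in A/J (0.48 ± 0.17, adjusted p = 0.773) and Tk1 in C3H/HeJ (0.84 ± 0.21, adjusted p = 0.404). Against 3 weeks, Rrm2 fell in C3H/HeJ (-1.18 ± 0.21, adjusted p = 0.0335), where 0.132% of all genes were called lower. No gene of the list passed in A/J (0.0220% of all genes called lower). At an unadjusted p under 0.05 there were 7 genes of the list in A/J, against 431 of all 9079 genes. The Rrm2 call in C3H/HeJ was lost without either 3 week array or the male 6 week array, and on the deposited scale. In C3H/HeJ the group mean at 6 weeks lay below that at 3 weeks for 31 of 32 genes (96.9%, against 43.1% of all genes), and every 6 week array lay below every 3 week array for 27 of them (15.5% of all genes). In A/J the mean was below for 22 of 32 (68.8%, against 47.9% of all genes), and the arrays separated for 8 (6.71% of all genes). The median difference between these times was -0.58 in C3H/HeJ and -0.17 in A/J.

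The C57BL/6 6 week group is a single female array, so nothing was tested. Its value was above both controls for 29 of the 32 genes and between the highest control and the lowest 3 week value for 25 of them, against 2984 and 1059 of all 9079 genes. More than 2-fold above the control mean were 4 genes, all of mitosis, namely Cdk1 (1.60), Plk1 (1.24), Prc1 (1.06) and Birc5 (1.02), where 1.71% of all genes were. Against the female control alone 1 gene was past 2-fold, Plk1 (1.40), and Cdk1 stood at 0.75.

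In moribund C57BL/6 mice 8 of 32 genes rose against control (6.94% of all genes were called higher and 8.30% lower) and none fell, with a median of 0.51. Every moribund array lay above every control array for 25 of the 32 genes (27.3% of all genes). Called higher were 8 genes. These were the nucleotide supply genes Rrm1 (0.76 ± 0.16), Tk1 (0.95 ± 0.21) and Rrm2 (0.75 ± 0.21), the nuclease Fen1 (2.35 ± 0.55), and Cks1b (0.95 ± 0.16), Birc5 (1.06 ± 0.24), Ccna2 (0.70 ± 0.21) and Aurkb (0.64 ± 0.20). None of the MCM genes passed, and neither did Mki67 (0.46 ± 0.27, adjusted p = 0.284) or Top2a (0.39 ± 0.20, adjusted p = 0.211). The count was 3 without the male control, 5 without the female control, 5 without the male and 4 without the female moribund array, and 2 on the deposited scale. This comparison and the C57BL/6 3 week comparison share their 2 control arrays.

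Set against 3 weeks directly, no gene of the list passed in moribund mice, nor did any of the 9079 genes (0 called by limma, 886 at an unadjusted p under 0.05, of which 13 belong to the list). The values nearest the threshold were those of Mcm2 (-1.72 ± 0.31, adjusted p = 0.0544), Mki67 (-1.23 ± 0.27, adjusted p = 0.169) and Rrm2 (-0.76 ± 0.21, adjusted p = 0.27). The mean was below that at 3 weeks for 29 of 32 genes (90.6%, against 52.8% of all genes), and every moribund array lay below every 3 week array for 24 of them (20.6% of all genes). Rrm1 was the exception on every array, at 218 and 211 in moribund mice against 197 and 183 at 3 weeks.

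Genes of the same machinery outside the list were counted as well. Of 26 other mitosis genes 14 rose in the mean of the strains (7.94% of all genes were called higher), among them Psrc1, a spindle microtubule protein (2.21 ± 0.16), the chromosome kinesin Kif22 (1.26 ± 0.16) and the mitotic kinase Pbk (0.78 ± 0.10). Counts by strain were 11 higher and 1 lower in C57BL/6 (7.09% of all genes higher), 6 higher in C3H/HeJ (1.74%) and 2 higher in A/J (0.793%). The gene that fell in C57BL/6 was Pttg1, which encodes securin (-0.48 ± 0.14), and it rose in C3H/HeJ (1.0 ± 0.14) and A/J (0.85 ± 0.13). In control lungs Pttg1 was already higher in C57BL/6 than in A/J (2.50 ± 0.14) and than in C3H/HeJ (2.53 ± 0.14). Of 24 other replication genes 2 rose in the mean of the strains, the licensing factor Cdt1 (0.45 ± 0.10) and Dbf4, which activates the Cdc7 kinase (0.47 ± 0.16), and 1 rose in C57BL/6 (Cdt1, 0.86 ± 0.19). For these replication genes the counts are near or below the shares of all genes just given, so they are no result about the list. Of 13 G1 cyclins, their kinases and E2F, B-MYB and FOXM1 factors 4 rose in the mean of the strains, Ccnd1, Ccnd3, Tfdp1 and Cdc25a, by 0.31 to 0.33.

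Of 9 inhibitors and pocket proteins at 3 weeks 2 were called higher and 1 lower, both in C57BL/6 and averaged over strains, 1 rose and 1 fell in C3H/HeJ, and 1 rose in A/J. Of all genes 7.09% were called higher and 5.97% lower in C57BL/6, and 7.94% and 9.03% averaged over strains. The shares were 1.74% and 1.09% in C3H/HeJ, and 0.793% were higher in A/J. With 9 genes, 1 called in a direction is no result about this set. Cdkn1a, the CDK inhibitor p21 that p53 induces after DNA damage, rose in every strain at 3 weeks. It read 293 and 268 in C57BL/6 controls, 1652 and 1699.8 at 3 weeks, 1539.6 on the 6 week array and 1787 and 1601 in moribund mice. C3H/HeJ gave 300.1 and 362 in controls, 959 and 1741 at 3 weeks and 652 and 709 at 6 weeks, and A/J gave 299.5 and 415 in controls, 881, 855, 899.7 and 1317 at 3 weeks and 611 and 694 at 6 weeks. Every bleomycin array of each strain was above its controls, and in C57BL/6 the moribund mice differed from the 3 week mice by 0.01 ± 0.20. The changes at 3 weeks were 2.51 ± 0.20 in C57BL/6, 1.92 ± 0.20 in C3H/HeJ and 1.42 ± 0.18 in A/J (adjusted p = 5.97e-07, 5.49e-05 and 0.000279). Cdkn1b, the inhibitor p27, fell in C57BL/6 at 3 weeks (-0.91 ± 0.21) and in moribund mice (-0.92 ± 0.21). The second inhibitor that rose in C57BL/6 was Cdkn2d (0.58 ± 0.17), and the inhibitor that fell in C3H/HeJ was Cdkn1c (-0.85 ± 0.21).

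With the promoter words set beside the changes, the 17 tested genes with a CHR word had a median of 0.72 in the mean of the strains (12 rose) and the 12 without it 0.54 (11 rose). The 5 tested genes with an E2F word had a median of 0.37 (3 rose), and the 24 without it 0.69 (20 rose). These are descriptions over few genes whose ranges overlap.

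Markers of several cell types moved in the same lungs. Of 10 macrophage markers 7 rose in C57BL/6 at 3 weeks (7.09% of all genes were called higher), and 6 rose and 1 fell in C3H/HeJ (1.74% higher, 1.09% lower). In A/J 2 rose (0.793% of all genes higher), and in moribund mice 7 rose (6.94%). The summed signal of the macrophage markers was 6223 to 6344 in C57BL/6 controls, 9511 to 10197 at 3 weeks and 11190 to 11447 in moribund mice, 6750.3 to 6800.0 and then 7357 to 8629 in C3H/HeJ, and 5366 to 5825 and then 7145 to 7617 in A/J. In the mean of the strains the 4 tested neutrophil markers rose (7.94% of all genes higher), and the 3 B cell and the 6 heart muscle markers fell (9.03% lower). In C57BL/6 at 3 weeks 5 of 6 endothelial markers fell (5.97% of all genes lower). The summed signal of the fibroblast markers was 5869 to 5899 in C57BL/6 controls, 7049 to 7051 at 3 weeks and 8418 to 8707 in moribund mice. In C3H/HeJ it was 4147 to 4169 in controls and 5517 to 5644 at 3 weeks. The A/J ranges overlapped, at 3495 to 3836 in controls and 3758 to 4424 at 3 weeks. Of the 6 thymocyte markers only Dntt passed the dim filter (22.0 to 61.1), while Rag1, Rag2 and Ptcra read at most 30.0, 40.6 and 54.8. The part of these shifts in the cell of origin of the proliferation signals was not tested. The ratio of 3′ to 5′ Gapdh signal, a measure of RNA integrity, ran from 0.770 to 2.08, highest on the female C3H/HeJ 6 week array, and its part was not tested.

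The other probe sets of the same genes were compared by the sign of their change. Of 20 further probe sets that passed the dim filter, 20 had the sign of the main probe set at 3 weeks in C57BL/6, 18 in C3H/HeJ and 12 in A/J, and in moribund mice 16. At 6 weeks against control the numbers were 17 in C3H/HeJ and 10 in A/J, and for 6 against 3 weeks 15 in C3H/HeJ and 13 in A/J. The 6 genes with dim probe sets only were not counted. Their changes in C57BL/6 at 3 weeks, not called, ran from -0.28 for a Bub1 probe set to 0.87 for the other, at mean signals of 11.3 and 14.2.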

How the data were processed

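The deposited values are array intensities, 1 per probe set and array, on a linear scale as judged from their range; no source used here names the authors' summarising software. RNA of 3 to 5 mice was pooled for each array, per the labels. Control probe sets (64) were left out and arrays were quantile normalised, after which log2(value + 16) was taken. The dimmest 33.3% of probe sets, ranked by their mean, were dropped. Of a gene's probe sets the brightest was used (9079 genes). Probe sets were named through the platform annotation (20380 with 1 symbol, 691 with several, 1555 with none; 20351 matched a current symbol). In limma 3.58.1 (R 4.3.3) 1 model held the 10 groups and sex (10 residual degrees of freedom), with trended variances and two-sided tests adjusted by Benjamini-Hochberg over all genes, at 0.05. All arrays share 1 estimate of the spread. The code was tested on simulated data. The genes and lists were chosen with earlier results of these data known. Values on every array are given for 13 preset genes. For the 3 replication and 3 mitosis genes with the smallest p per comparison, changes are given where the text names them. Alternatives covered scaling, offset, dim filter, sex term, array weights, probe set choice, arrays in the fit, doses and leaving out each array.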

Additional observations from a re-analysis of the deposited data

Results flagged for a closer look

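Within the 4 A/J arrays at 3 weeks, the only group large enough for a check of single arrays, 3 of 33 genes had an array far from the others, and chance alone sets about 1 in 20 groups apart. Mcm7 read 369 on the male array at 100 mg/kg against 307 to 314 on the others, and Aurka read 84.1 on the same array against 69.9 to 70.4. Cdkn1a read 1317 on the female array at 125 mg/kg against 855 to 899.7.

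The 3 week change differed between C57BL/6 and A/J by the test for Mcm2 (2.01), Psrc1 (1.67), Anln (1.11) and Pttg1 (-1.33), and between C57BL/6 and C3H/HeJ for Pttg1 (-1.48). On the probe set used, Mcm2 was above both controls on every C57BL/6 array at 3 weeks and below both on every A/J array (mean difference -0.52). At 6 weeks it was again above in C57BL/6 and below in A/J (-0.50), and Fen1 was above in C57BL/6 and below in C3H/HeJ (-1.21). The 6 week differences were not tested, since C57BL/6 had 1 array.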

How the results depend on the processing

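Counts below are called genes of the 32, against the reported counts of 25 (mean of the strains), 2 (A/J), 22 (C57BL/6), 13 (C3H/HeJ), 8 (moribund), 1 (C3H/HeJ 6 against 3 weeks), 2 (C57BL/6 minus A/J response) and 4 (C57BL/6 6 week array, 2-fold), and 0 elsewhere. On the deposited scale they were 14, 0, 9, 2, 2, 0 and 1, and 1 between C57BL/6 and C3H/HeJ controls, with the value of Pcna in the mean of the strains turned to -0.062. Using only the strains compared they were 0 (A/J), 13 (C57BL/6), 7 (C3H/HeJ), 4 (moribund), 0 (C3H/HeJ 6 against 3 weeks), 1 (C57BL/6 minus A/J), 1 (C57BL/6 minus C3H/HeJ response) and 1 (C57BL/6 minus C3H/HeJ controls). With array weights they were 7 (A/J), 5 (moribund), 0 (C3H/HeJ 6 against 3 weeks), 5 (C57BL/6 minus A/J) and 1 (C57BL/6 minus C3H/HeJ controls). Without a dim filter they were 1 (A/J), 8 (C3H/HeJ), 0 (C3H/HeJ 6 against 3 weeks) and 1 (C57BL/6 minus A/J), and with a filter that drops 50% of the probe sets 5 (moribund) and 1 (C57BL/6 minus A/J). Scaling to 1 median, and leaving out probe sets shared between transcripts (chosen after seeing the data), each gave 0 for C3H/HeJ 6 against 3 weeks and 1 for C57BL/6 minus A/J. For C3H/HeJ 6 against 3 weeks the count was 2 with an offset of 64, without the sex term and with the mean of a gene's probe sets, which gave 1 in A/J. A/J arrays at matching doses gave 4 in A/J and 0 for C57BL/6 minus A/J. The C57BL/6 6 week count was 0 with an offset of 64, 7 with an offset of 1 and 1 against the female control. Leaving out 1 array at a time gave 18 to 25 (mean of the strains), 0 to 2 (A/J), 10 to 12 (C57BL/6), 2 to 8 (C3H/HeJ), 3 to 5 (moribund), 0 to 1 (moribund against 3 weeks), 0 to 1 (C3H/HeJ 6 against 3 weeks) and 0 to 2 (C57BL/6 minus A/J). A left-out array leaves a lone array whose spread is taken from the other groups, and a smaller sample; the cause of the other shifts was not tested. Apart from the runs that left out 1 array, only the larger shifts of a count are listed. A count not listed for a setting need not be unchanged. Of 4105 alternative values of single genes 264 lost a call and 45 gained one. No paired analysis was possible because the labels give no replicate numbers and pools hold different mice.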
